A study of Mus musculus and Homo sapiens with 16 samples.

Results

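Open chromatin without a called peak of the active histone mark or the factor under study made up most called accessible sites of sorted embryonic mouse skin epithelium. The regions described here are the ATAC-seq peaks (open chromatin) of sorted E17.5 skin epithelium on chromosomes 1 to 19, X and Y that overlapped no H3K27ac ChIP-seq peak and no KLF5 ChIP-seq peak of the same stage by even 1 base. There were 27945 of them among 41825 ATAC peaks, and they are called unmarked below. Of these, 4760 were promoter peaks, with the summit within 1 kb of an annotated gene start, and 23185 were distal. A marked peak overlapped an H3K27ac peak, a KLF5 peak or both. The members were selected on the peak calls themselves, so peak counts and peak strengths are given as descriptions, without a test.

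The series concerns KLF5 in the skin barrier of C57BL/6 mice. Chromatin was assayed in 1 sample each for ATAC, H3K27ac and KLF5, from peeled epidermis sorted at E17.5 for DAPI-, CD45- cells positive for integrin alpha 6, a protein of the basal layer. All 3 carry the genotype label wild type, although the ATAC title says Het. RNA came from 3 libraries labelled Klf5-/- and 3 labelled Klf5+/- of the same sorted E17.5 epithelium. It also came from 2 Klf5-/- and 2 Klf5+/- libraries whose titles read HFD, an abbreviation that the labels do not expand. The HFD libraries were made from unsorted peeled epidermis ground in liquid nitrogen, with no age or stage given. The sources used here do not say how Klf5 was deleted, in which cells or with which promoter. The Klf5+/- libraries carry the altered allele too, so no RNA library of unaltered genotype stands beside them. The 10 RNA libraries held 31819010 to 46445546 counts on genes. Summed basal keratinocyte markers stood at 26658 to 32445 CPM (counts scaled to the library total on genes) in E17.5 libraries labelled Klf5-/- and 23928 to 29043 CPM in Klf5+/- ones. Summed suprabasal and cornified envelope markers, a longer list, stood higher in the same libraries, at 35683 to 52272 CPM and 60849 to 74224 CPM.

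Transposase cuts where nucleosomes are displaced, so an ATAC peak shows that DNA is accessible but not what is bound there. Acetylation of histone H3 at lysine 27 is laid down around active promoters and enhancers. Accessible sites without it include promoters of genes that are held off or barely transcribed, sites held open by architectural factors such as CTCF, and enhancers that are primed but not active. KLF5 is a zinc-finger factor that binds GC-rich DNA and is abundant in basal cells of stratified epithelia.

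Strong unmarked promoters and some with a REST motif give examples of the sequence found in these regions. Sequences were read from the RefSeq promoter table for GRCm38.p6, which spans 250 bases before to 50 after each gene start. The first group holds 4 promoter windows that contain the ATAC summit and carry a searched motif near it, with the motif in capitals. They have the highest ATAC fold enrichment under a cap on windows per motif, so their variety of motifs cannot be read as typical. Each line gives the bases around the summit. Capitals mark the motif named for that sequence and no other, so a second motif can stand in lower case.
Kifap3, chr1:163779506-163779582, plus strand: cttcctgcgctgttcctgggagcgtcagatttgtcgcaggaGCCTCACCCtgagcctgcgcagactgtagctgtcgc
Hey2, chr10:30842784-30842883, minus strand: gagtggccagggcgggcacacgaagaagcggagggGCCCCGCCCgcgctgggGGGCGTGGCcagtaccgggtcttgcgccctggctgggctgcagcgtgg
Tcte3, chr17:15041617-15041717, minus strand: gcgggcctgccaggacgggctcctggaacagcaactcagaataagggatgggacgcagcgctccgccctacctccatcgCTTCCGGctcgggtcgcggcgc
Tigar, chr6:127109679-127109779, minus strand: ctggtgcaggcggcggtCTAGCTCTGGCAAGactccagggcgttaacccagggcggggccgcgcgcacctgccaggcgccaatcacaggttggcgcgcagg
Kifap3, which encodes an adaptor of the kinesin motors of cilia and axons, and Hey2, a Notch-responsive repressor, hold KLF/SP motifs (GGGNGNGGC on either strand). Tcte3, a dynein light chain gene of the testis, holds an ETS motif (CCGGAAG). Tigar, a metabolic phosphatase gene induced by p53, holds a p53 family motif and, in lower case, the KLF/SP letters. Their ATAC peaks had fold enrichments of 12.6, 11.6, 11.1 and 11.1 in that order, above the median of unmarked promoter peaks given below.

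The second group holds the REST motif, CAGCACCNNGGACA, the binding element of a repressor that keeps neuronal genes silent outside the nervous system. It was picked out after its shares were seen, and each line gives 61 bases with the motif in capitals.
Dner, chr1:84696332-84696392, minus strand: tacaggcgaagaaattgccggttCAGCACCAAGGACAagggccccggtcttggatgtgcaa
Hrh3, chr2:180104552-180104612, minus strand: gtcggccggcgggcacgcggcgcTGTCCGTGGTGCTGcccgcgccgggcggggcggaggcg
Lca5, chr9:83441266-83441326, minus strand: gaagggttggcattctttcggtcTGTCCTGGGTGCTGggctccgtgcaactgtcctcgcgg
Lhx3, chr2:26208253-26208313, minus strand: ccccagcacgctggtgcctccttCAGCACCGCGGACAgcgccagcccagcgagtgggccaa
Ogdhl, chr14:32321893-32321953, plus strand: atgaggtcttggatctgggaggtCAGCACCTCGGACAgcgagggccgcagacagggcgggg
Dner encodes a Notch ligand of neurons, Hrh3 a histamine receptor of the brain, Lca5 the ciliary protein lebercilin, Lhx3 a LIM homeobox factor of motor neurons and the pituitary, and Ogdhl a relative of oxoglutarate dehydrogenase. Hrh3 and Lca5 hold the motif in the reverse orientation to the other three.

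Most ATAC peaks overlapped no H3K27ac or KLF5 peak, and such overlap was rarer at distal sites than at promoters. Unmarked peaks were 66.8% of all ATAC peaks (95% exact Clopper-Pearson interval 66.4 to 67.3%, which covers the counting of peaks only). They were 38.0% of the 12520 promoter peaks and 79.1% of the 29305 distal peaks. Of the other ATAC peaks, 8432 overlapped H3K27ac only, 4344 both marks and 1104 KLF5 only. The H3K27ac list held 18155 peaks and the KLF5 list 6472, against 41905 in the ATAC list, so the lists differ in reach as well as in what they mark. Whether an unmarked peak lacked the mark or fell below the peak caller's threshold cannot be told apart from lists of called peaks.

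Unmarked peaks were weaker and narrower than marked ones. Fold enrichment over local background, the authors' own value, had a median of 5.31 in unmarked and 7.86 in marked promoter peaks, and 4.98 in unmarked and 6.25 in marked distal peaks. Median width was 509 bases in unmarked against 848 in marked promoter peaks, and 371 against 569 bases in unmarked and marked distal peaks. The authors' −log10 q had a median of 8.73 in unmarked against 21.5 in marked promoter peaks, and of 6.55 against 12.5 in unmarked and marked distal peaks.

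The unmarked share fell along the scale of peak strength, more steeply at promoters. Of promoter peaks with a fold of 3 to 4, 74.1% were unmarked (71.3 to 76.8%), and of those at 12 to 15, 12.2% (9.28 to 15.7%). Distal peaks stood at 89.9% (89.0 to 90.8%) and 43.8% (37.4 to 50.4%) in the same bins. Beyond that the distal share was 56.8% at a fold of 15 to 20 and 57.1% at 20 and over, where 16 of 28 peaks were unmarked and the interval ran from 37.2 to 75.5%. The weakest peaks were thus mostly unmarked in both classes, and the strongest distal peaks were unmarked about as often as marked.

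**Figure D1:**
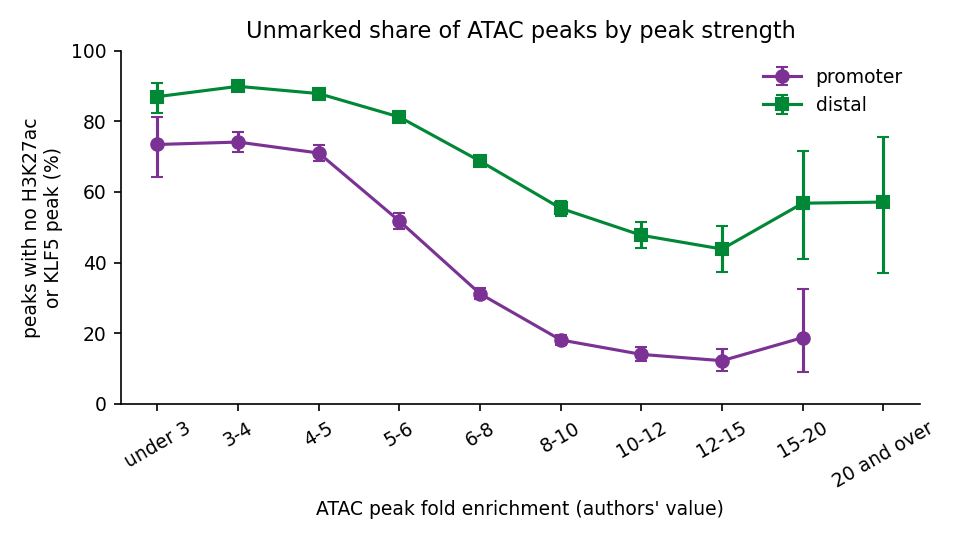
Share of ATAC peaks with no H3K27ac or KLF5 peak (%, vertical axis) in bins of the authors' fold enrichment (horizontal axis), for promoter and distal peaks; bars are exact 95% binomial intervals. The promoter share falls to 12.2% at a fold of 12 to 15, while the distal share stays at 43.8% or above in every bin.

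The 5 strongest unmarked promoter peaks lay at none of the listed keratinocyte genes. Their folds were 18.4 at Gm13532, 16.7 at 3632451O06Rik, 16.7 at Impa1 (an inositol monophosphatase), 16.2 at Phf21a (a reader of unmethylated histone H3) and 15.9 at 1700007G11Rik. The Gm13532 peak spanned 305 bases at chr2:57629460-57629764 (mm10), 374 bases from summit to gene start and 174818 bases from the nearest H3K27ac peak.

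The strongest unmarked distal peaks were narrow and lay at least 25154 bases from an H3K27ac peak. The 10 highest folds ran from 24.9 to 33.6, with widths of 302 to 442 bases, and the highest of a marked distal peak was 33.8. The highest unmarked one lay at chrX:170758171-170758553, 11161 bases from the start of Gm15069. A second peak of the same kind lay at chrX:170880930-170881330 with a fold of 29.96, 11164 bases from Gm15068. Others lay at chr16:98107433-98107812 with a fold of 32.7 and at chr12:78350847-78351171, inside Gphn (the synaptic scaffold gephyrin), with 30.6. The 2 peaks on chromosome X stand at nearly the same distance from genes with neighbouring clone names, and no list of regions with anomalous read depth was applied here.

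Members close to the boundary of the rule were ordinary peaks. The promoter peaks of Prune and Tmem38a touched an H3K27ac peak with a gap of 0 bases and that of Kdelr3 lay 1 base away, with folds of 3.53, 4.94 and 5.44. The marked peaks with the least overlap, near Pgpep1, Gm4761 and Pls3, shared 1, 2 and 2 bases with H3K27ac and had folds of 4.04, 3.31 and 4.04.

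Most unmarked peaks were far from the nearest called H3K27ac peak, rather than next to one. The distances below run to called peaks, so acetylation under the peak caller's threshold is not seen in them. The median gap to the nearest H3K27ac peak was 38489.5 bases for promoter and 35433 bases for distal members. A gap under 1 kb was found for 300 promoter members (6.30%) and 722 distal members (3.11%), while 27.9% of promoter and 26.8% of distal members were over 100 kb away. Only 6 promoter and 6 distal members had H3K27ac peaks within 1 kb on both sides, the arrangement of a nucleosome-free gap between acetylated flanks.

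**Figure D2:**
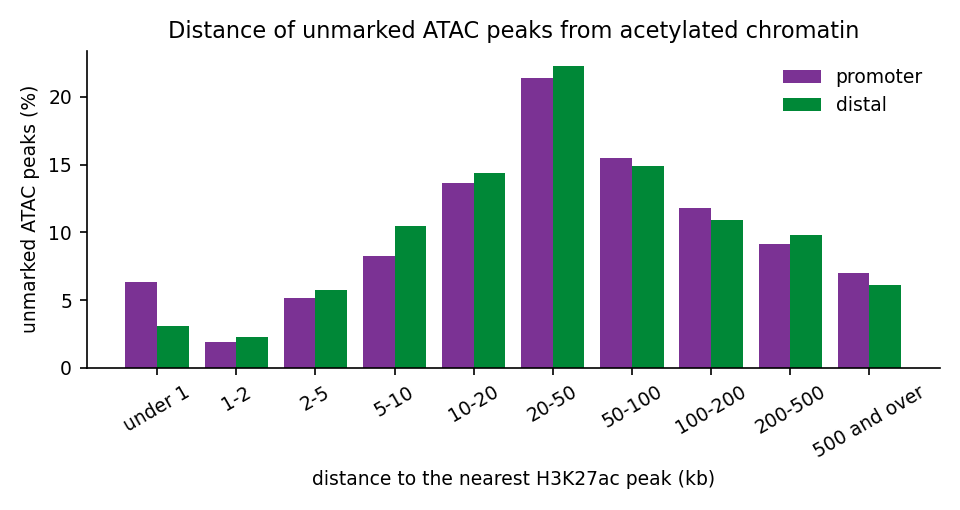
Distance from each unmarked ATAC peak to the nearest H3K27ac peak in kb (horizontal axis, bins of unequal width) and the share of unmarked promoter and distal peaks in each bin (%, vertical axis). The bin of 20 to 50 kb is the fullest in both classes, with 21.4% of promoter and 22.3% of distal peaks, and the share under 1 kb is 6.30% for promoter against 3.11% for distal peaks.

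The unmarked share varied moderately among chromosomes. On the autosomes it ran from 32.4% on chromosome 11 to 44.5% on chromosome 14 for promoters, and from 73.0% to 83.0% for distal peaks. On chromosome X it was 47.3% for promoters (interval 42.3 to 52.4%), above the range of the autosomes.

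Distal members spread over gene bodies and gene deserts alike. Of them 51.2% lay inside an annotated gene, the median distance from summit to gene start was 24480 bases, and 3269 (14.1%) were over 100 kb from any start. The annotation used has 1 start for each gene, so an inner start counts as distal. Of 22331 distal members off chromosome 18, 595 (2.66%) overlapped the start of a RefSeq transcript, against 13.8% of distal peaks with H3K27ac only and 8.68% of those with both marks.

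The genes with the most unmarked distal peaks nearby ranged from nearly silent to well expressed. Among genes tested for RNA, Cacna2d1 (a calcium channel subunit) was the nearest to 50 distal peaks, all unmarked, and Pclo (a presynaptic scaffold) to 34, all unmarked. Their mean E17.5 levels were 0.202 and 0.102 RPKM (CPM per kilobase of exon). Lphn2, an adhesion receptor, was nearest to 40 distal peaks of which 35 were unmarked, with 11.3 RPKM, and Efnb2, an ephrin ligand, to 34 of which 28 were, with 20.8 RPKM. Wwc1, a regulator of the Hippo pathway, was nearest to 35 of which 29 were unmarked, with 21.9 RPKM, and Tiam1, a Rac activator, to 29 of which 22 were, with 36.4 RPKM. Within annotated gene spans, Gm20388 held 59 unmarked of 81 distal peaks over 4435 kb and Fgfr2 35 of 54 over 2961 kb. They were followed by Nav2 with 34 of 37, Tenm2 with 29 of 31, Tenm4 with 25 of 27 and the chromatin remodeller gene Arid1b with 23 of 27. Auts2 held 20 of 28, Pde4d 17 of 25 and Sox5 15 of 15. These genes were picked out by their counts, and long genes hold more peaks of any kind.

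Across all distal peaks, the nearest tested gene was farther away and expressed at a lower level for unmarked than for marked peaks. The median level of that gene was 2.62 on the log2(RPKM + 1) scale for unmarked peaks, against 3.05 for KLF5 only, 3.06 for H3K27ac only and 3.27 for both marks. Its median distance was 48741 bases for unmarked peaks, against 35182, 27419 and 26217 bases. In each of the 6 E17.5 libraries the median for unmarked peaks lay between 2.59 and 2.68, below the lowest value of any marked class, 2.98.

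The unmarked share of the distal peaks in gene bodies varied among the lists, most with wide intervals. Basal keratinocyte genes held 27 unmarked of 46 distal peaks (58.7%, interval 43.2 to 73.0%). In that list Dst, a linker of hemidesmosomes, held 6 of 8, and Trp63, the master regulator of stratified epithelium, 5 of 7. Developmental transcription factors held 37 unmarked of 38, and neuronal genes 15 of 15, of which Syt1, a synaptic vesicle protein gene, had 7. Suprabasal genes held 13 of 17, epidermal transcription factors 40 of 57 and sphingolipid genes 70 of 94. Endothelial markers held 6 of 11, Hox genes 4 of 7 and Wnt genes 14 of 22. Over all distal peaks the share was 79.1%, inside the intervals of the suprabasal, epidermal transcription factor and sphingolipid lists and above that of the basal list.

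At the gene level, 4848 of 38887 annotated genes had unmarked peaks and no other ATAC peak within 1 kb of their start. A further 6182 genes had H3K27ac only, 2804 had both marks, 139 had KLF5 only, 189 had peaks of mixed classes and 24725 had no ATAC peak. Below, genes with a marked promoter are the 8986 with H3K27ac, with or without KLF5. Of the unmarked genes, 91.6% matched the RefSeq gene table, and 85.3% of the matched ones were protein coding. The share was 92.1% for H3K27ac only, 91.2% for both marks and 48.9% for genes with no ATAC peak. The matched unmarked genes included 349 lncRNA genes, 65 miRNA genes and 137 pseudogenes.

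RNA, which the selection did not use, was low for genes with unmarked promoters but above that of genes with no ATAC peak at the annotated start. The median level of the unmarked genes on the log2(RPKM + 1) scale was 0.44, 0.51 and 0.44 in the E17.5 libraries labelled Klf5-/-, and 0.45, 0.38 and 0.43 in the Klf5+/- ones. Relative to marked genes these medians were lower by 2.90 to 2.83 in every library, with a mean difference of −2.85 ± 0.025 (SD, n = 6 libraries). The exact two-sided sign-flip permutation p was 0.03125, the smallest that 6 libraries allow. All 6 libraries measure the same gene classes, which come from 1 sample per chromatin assay. This p thus covers the spread among libraries only, not that among genes or chromatin samples. Genes with no ATAC peak had a median of 0 in every library, the floor of the scale, so no test was made against them. From 49.6% to 52.7% of unmarked genes reached 1 CPM in an E17.5 library, against 86.2% to 86.7% of marked genes and 8.56% to 9.82% of genes with no ATAC peak. Counts of a bulk library cannot tell fewer cells of a type from less RNA per cell.

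The gap between unmarked and marked genes was set beside genotype in a design too small to pass 0.05. At E17.5 it was −2.87 ± 0.033 in libraries labelled Klf5-/- and −2.84 ± 0.0089 in Klf5+/- ones (SD, n = 3 each; exact permutation p = 0.4, where 0.1 is the smallest possible). In the HFD libraries the difference averaged −2.28 in those labelled Klf5-/- and −2.09 in Klf5+/- ones (n = 2 each; exact permutation p = 0.333, the smallest possible), without overlap. The HFD medians of the unmarked genes were 0.46 and 0.38 in libraries labelled Klf5-/-, against 0.76 and 0.80 in Klf5+/- ones, without overlap. Restricting the comparison to genes with at least 1 CPM gave a smaller E17.5 difference of −1.45.

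**Figure D3:**
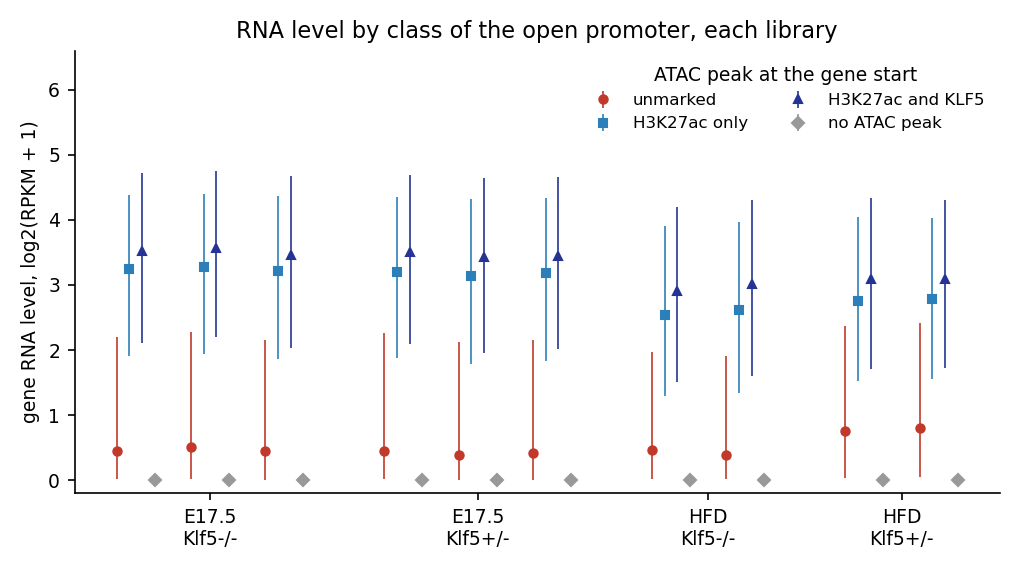
Gene RNA level, log2(RPKM + 1) (vertical axis), in each of the 10 libraries grouped by set and genotype (horizontal axis), for genes by class of the ATAC peak at their start; points are medians over genes and bars run from the first to the third quartile. The unmarked medians lie between 0.38 and 0.80 in every library, below both H3K27ac classes and above genes with no ATAC peak.

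The unmarked genes spanned every level from silent to very high. Of 4848, 1457 (30.1%) had a mean under 0.1 CPM over the 6 E17.5 libraries, 923 lay at 0.1 to 1, 1110 at 1 to 10, 1181 at 10 to 100, and 177 (3.65%) at 100 CPM or more. The higher the level, the closer the promoter peak lay to a called H3K27ac peak. The median gap was 71574, 50444, 39471.5, 20215 and 10612 bases in these 5 bands. Under 1 CPM stood 2380 unmarked genes (49.1%), against 1214 marked genes (13.5%) and 22482 genes with no ATAC peak (90.9%). Of these silent genes, 134 unmarked (5.63%) reached at least 5 CPM in the mean of the HFD libraries, against 26 marked (2.14%) and 317 with no ATAC peak (1.41%). The sets differ in sorting, preparation and library kit, so the counts describe the libraries and not a course in time.

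At the top of the scale stood abundant keratinocyte and housekeeping genes whose start had an ATAC peak but no overlapping mark. Krt1, the first keratin of suprabasal cells, had 7552, 6616 and 10468 RPKM in E17.5 libraries labelled Klf5-/-, against 15163, 15541 and 12567 RPKM in Klf5+/- ones. The genotypes did not overlap, but the difference missed the threshold (log2 fold change −0.87, SE 0.19, edgeR adjusted p = 0.119). Its 217-base ATAC peak at chr15:101850720-101850936 had a fold of 4.01 and lay 28.0 kb from the nearest H3K27ac peak and 4777 bases from the nearest KLF5 peak. Dmkn, encoding the secreted epidermal protein dermokine, had 671, 588 and 768 RPKM in libraries labelled Klf5-/-, against 919, 1003 and 924 RPKM in Klf5+/- ones, again without overlap (−0.55, SE 0.13, edgeR adjusted p = 0.128). Its peak had a fold of 4.60 and lay 11.8 kb from H3K27ac.

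The other 8 of the 10 highest differed in how near the closest called H3K27ac peak lay. Pkp1, a plakophilin of desmosomes, had 376 to 420 RPKM in libraries labelled Klf5-/- and 462 to 574 RPKM in Klf5+/- ones, and its peak ended 71 bases from an H3K27ac peak. Gapdh, of glycolysis, had 470 to 511 and 467 to 487 RPKM with a gap of 25.4 kb, and Tpi1, of the same pathway, had means of 341 ± 42.1 and 374 ± 31.9 RPKM (SD, n = 3 each) with a gap of 7.25 kb. Pkm (pyruvate kinase), Rpl13a (a ribosomal protein) and Fgfbp1 (a carrier of fibroblast growth factors) had gaps of 16.5, 6.63 and 33.2 kb. BC117090 had 31.9, 658 and 1398 RPKM in libraries labelled Klf5-/-, against 50.5, 1427 and 60.8 RPKM in Klf5+/- ones. Its values spread more within each genotype than between them. BC100530, on the same stretch of chromosome 16, ranged from 944 to 1885 RPKM in libraries labelled Klf5-/- and from 1215 to 1783 RPKM in Klf5+/- ones, with a gap of 270 bases. Of the 10, none was called between genotypes at E17.5 by edgeR.

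Gene families differed in what the open promoters of their members carried. These lists were written with earlier results of the series in view, so their counts are descriptions. Among all genes with an ATAC peak at the start, 4848 of 14162 were unmarked. Of 133 developmental transcription factors, patterning genes of other organs, 45 had an ATAC peak at the start and 42 of these were unmarked. Of the 42, 30 stood under 1 CPM at E17.5, among them Nkx2-2, Foxa1, Barhl1 and Hand1. A few of the 42 were well expressed. Irx2, an Iroquois homeobox factor, had 112, 118 and 94.5 RPKM in libraries labelled Klf5-/-, against 119, 99.2 and 94.4 RPKM in Klf5+/- ones. The hair and epidermal factor Sox21 had 7.12, 7.22 and 7.16 RPKM against 10.6, 6.81 and 6.07 RPKM, and Dlx5, a distal-less homeobox factor, had 5.17, 5.20 and 5.17 RPKM against 4.96, 7.35 and 4.89 RPKM in the same order of labels. In all 3 genes the genotypes overlapped.

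Secreted Wnt ligands followed the same pattern at higher levels. Of 19 Wnt genes, 8 had an ATAC peak at the start and all 8 were unmarked. Wnt4, a ligand of the developing epidermis, had 84.2, 78.6 and 74.1 RPKM in libraries labelled Klf5-/-, against 84.1, 75.6 and 74.6 RPKM in Klf5+/- ones. Its ATAC peak had a fold of 3.70 and lay 5.38 kb from H3K27ac. Wnt3 and Wnt16 lay 1.88 and 7.19 kb from H3K27ac, with 20.6 to 30.6 and 14.0 to 15.6 RPKM in libraries labelled Klf5-/-, and 24.0 to 27.9 and 12.6 to 16.1 RPKM in Klf5+/- ones. Wnt7a had 8.14 to 9.95 and 8.97 to 11.6 RPKM, and its peak lay 28.6 kb away.

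Where genes of rare cell types in or beside the epidermis had an ATAC peak at the start, it was mostly unmarked, though many had none. All 7 Merkel cell genes with an ATAC peak, of 10 listed, were unmarked. Atoh1, the factor that specifies Merkel cells, had 1.21, 1.502 and 2.06 RPKM in E17.5 libraries labelled Klf5-/-, against 1.22, 1.44 and 1.56 RPKM in Klf5+/- ones, and its peak lay 312 kb from H3K27ac. Sox2 and Isl1, 2 further Merkel cell factors, had at most 1.84 and 1.28 RPKM in libraries labelled Klf5-/-, and at most 1.502 and 1.12 RPKM in Klf5+/- ones. All 3 melanocyte genes with an ATAC peak, of 11 listed, were unmarked. Mitf, the master factor of melanocytes, had 4.64, 5.02 and 4.75 RPKM in libraries labelled Klf5-/-, against 4.00, 3.51 and 3.96 RPKM in Klf5+/- ones, without overlap (log2 fold change 0.27, SE 0.09, edgeR adjusted p = 0.325). Kit, the receptor for stem cell factor, had a peak 530 kb from H3K27ac and 8.93 to 11.1 RPKM in libraries labelled Klf5-/-, against 7.59 to 9.94 RPKM in Klf5+/- ones. All open marker genes were also unmarked in 5 further lists, namely 6 of 12 neuronal, 4 of 11 endothelial, 3 of 10 erythroid, 2 of 8 adipocyte and 2 of 15 immune genes. Schwann cell markers had 3 unmarked of 6 open and 9 listed, and fibroblast markers 2 of 4 open and 15 listed. At E17.5 summed melanocyte markers stood at 541 to 571 CPM in libraries labelled Klf5-/-, against 449 to 506 CPM in Klf5+/- ones, and Merkel cell markers at 79.5 to 124 CPM against 57.8 to 77.9 CPM. Neuronal markers stood at 39.3 to 49.6 CPM in libraries labelled Klf5-/-, against 58.3 to 70.9 CPM in Klf5+/- ones, and endothelial markers at 6.29 to 7.33 CPM against 2.82 to 5.11 CPM. None of these 4 sums overlapped between the genotypes, and no gene of these lists was called at E17.5. The adipocyte sum did not overlap either, at 12.0 to 33.4 CPM in libraries labelled Klf5-/- against 7.35 to 10.4 CPM. The fibroblast, immune, Schwann cell, muscle and erythroid sums did overlap. The share of all genes without such overlap was not taken. By gene, the neuronal list split into 4 below 0 and 4 above, with a median log2 fold change of 0.07. Above 0 were 9 of 10 tested melanocyte, 8 of 10 Merkel cell and 5 of 6 endothelial genes.

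Keratinocyte lists lay on both sides of the share over all open genes, 4848 of 14162. Of the 16 basal keratinocyte genes 11 were open and 3 of these unmarked, namely Lama3 (a chain of laminin-332), Plec (plectin) and Dst. The annotated starts of Krt5 and Trp63 had no ATAC peak. The annotation has 1 start for each gene, so a peak at an inner start is not counted in these lists. The span of Trp63 held 7 distal ATAC peaks, 2 of them marked. Of 47 suprabasal and cornified envelope genes 13 were open and 7 unmarked, among them Krt1, the desmocollin gene Dsc1 and the transglutaminase genes Tgm1, Tgm3 and Tgm5. Epidermal transcription factors had 11 unmarked of 33 open, with Zfp750, Pou2f3, Barx2 and Junb. Sphingolipid and ceramide genes had 10 of 38, with Elovl4 (very long chain fatty acid elongation), Acer1 (a ceramidase), Smpd1 (acid sphingomyelinase) and Abca12 (lipid loading of lamellar granules). Genes named Zfp had 72 of 288, and genes whose symbol begins with Rpl or Rps had 9 of 93. That list was made by prefix, and Rps19bp1 and Rps6ka4 in it are not ribosomal proteins. Hox genes had 6 of 9, hair follicle genes 7 of 15, while muscle markers, clustered protocadherins and olfactory receptors had 1 of 1, 2 of 2 and 3 of 4.

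**Figure D4:**
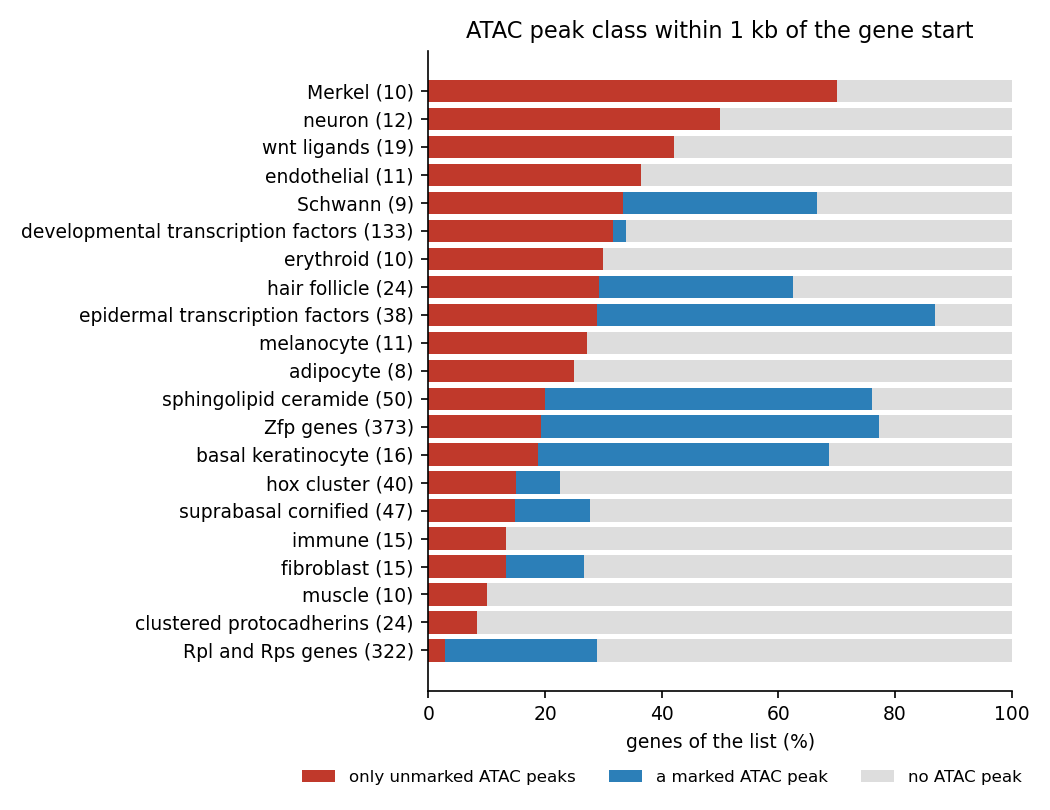
Share of each gene list (%, horizontal axis; number of genes in parentheses) whose start within 1 kb has only unmarked ATAC peaks, a marked ATAC peak or no ATAC peak; olfactory receptors, nearly all without a peak, are left out. Merkel, neuron, Wnt and endothelial genes have no marked bar, whereas epidermal transcription factors and Zfp genes have long ones.

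The DNA of unmarked promoters differed in composition and motifs from that of marked ones. Of 32817 RefSeq promoter windows of 300 bases, 3008 were covered over at least 150 bases by an unmarked ATAC peak, 8271 by a marked peak and 1644 partly by either, and 19894 had no ATAC peak. The observed-over-expected CpG ratio had a median of 0.68 in unmarked, 0.84 in marked and 0.22 in windows with no peak. It reached 0.6, a usual mark of a CpG island, in 60.3%, 86.0% and 9.73% of them. GC content had a median of 61.3% in unmarked, 63.3% in marked and 48% in windows with no peak. Windows of overlapping or divergent starts share DNA, and the shares below have no test.

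ETS and YY1 motifs were the scarcest relative to marked promoters. The ETS motif, shown above in Tcte3, was in 9.74% of unmarked windows (exact interval 8.70 to 10.9%), 22.7% of marked (21.8 to 23.6%) and 2.89% of windows with no peak, against 8.86% of all windows. The YY1 motif (AANATGGCG) was in 1.43% of unmarked (1.04 to 1.92%), 6.601% of marked (6.08 to 7.16%) and 0.603% of windows with no peak, against 2.37% of all. Both are motifs of ubiquitous factors of housekeeping promoters. Among windows with a CpG ratio of at least 0.6 the ETS shares were 11.9% in unmarked and 24.2% in marked, and the YY1 shares 2.04% and 7.23%. Splitting by RNA, ETS was in 4.96% of unmarked windows of genes under 1 CPM and 14.9% of those at 10 CPM or more, against 21.7% and 23.9% of marked windows in the same bands.

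Other GC-rich motifs differed less. NRF1 (GCGCNTGC) was in 15.4% of unmarked and 23.1% of marked windows, against 9.60% of all. KLF/SP, shown above in Kifap3 and Hey2, was in 40.8% of unmarked windows (39.1 to 42.6%), 48.3% of marked ones and 58.2% of those whose peak carried both marks, against 25.8% of all. NFY (CCAATNAG) was in 9.77% of unmarked and 11.0% of marked windows, against 7.09% of all. The KLF/SP letters stand for a family of factors that share this element, and a match is no site of KLF5.

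Several other motifs had higher shares in unmarked than in marked windows, and most of these differences were smaller or gone among CpG-rich windows. RFX (GTTGCNNGG), the element of the factors that drive ciliary genes, was in 7.41% of unmarked windows (6.50 to 8.41%), 5.59% of marked (5.10 to 6.11%) and 4.16% of windows with no peak, against 4.85% of all. At a CpG ratio of at least 0.6 it was in 8.54% of unmarked and 5.58% of marked windows. The motif of GATA factors, with letters AGATAAG, was in 2.16% of unmarked (1.67 to 2.75%) and 1.15% of marked windows (0.930 to 1.40%), against 3.05% of all, and in 1.60% and 0.886% of the CpG-rich ones. GRHL (AACCNGTT), the element of the grainyhead-like epithelial factors, was in 2.39% of unmarked and 1.499% of marked windows, and AP-1 (TGACTCA) in 4.22% and 3.23%, against 2.08% and 5.20% of all windows. Among CpG-rich windows GRHL was in 1.65% of unmarked and 1.28% of marked, and AP-1 in 2.09% and 2.36%, the other way round. The p53 family motif was in 5.55% of unmarked and 4.63% of marked windows, against 7.21% of all, and in 4.02% and 3.95% of the CpG-rich ones. CEBP (TTGCNNAA) was in 8.68% of unmarked and 7.18% of marked windows, against 10.8% of all, and in 6.23% and 6.24% of the CpG-rich ones. The TATA box was in 1.70% of unmarked and 1.03% of marked windows, against 2.96% of all. CTCF (CCANNAGNGGGC) was in 1.20% of unmarked and 1.31% of marked windows, against 1.04% of all. The motifs of TEAD, with letters ACATTCC, of RUNX, with letters TGTGGTT, of SOX, with letters AACAATG, and of FOX, with letters TGTTTAC, were in 1.60 to 3.16% of unmarked and 1.48 to 2.93% of marked windows, against 3.65 to 5.27% of all. The REST motif was in 8 of 3008 unmarked windows (0.266%, interval 0.115 to 0.523%), 0 of 8271 marked windows (upper limit 0.0446%) and 6 of 19894 with no peak, against 14 of all 32817. The 8 lay at Dner, Hrh3, Lca5 (overlapping windows of 2 starts), Lhx3, Ogdhl, Ttc9b and Gm32659, the last under the ATAC peak of the synaptic gene Snap25. Dner and Hrh3, whose sequences are above, had means of 0.0861 and 0.0492 CPM at E17.5, while Lca5 and Ogdhl had 7.59 and 13.5 CPM.

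**Figure D5:**
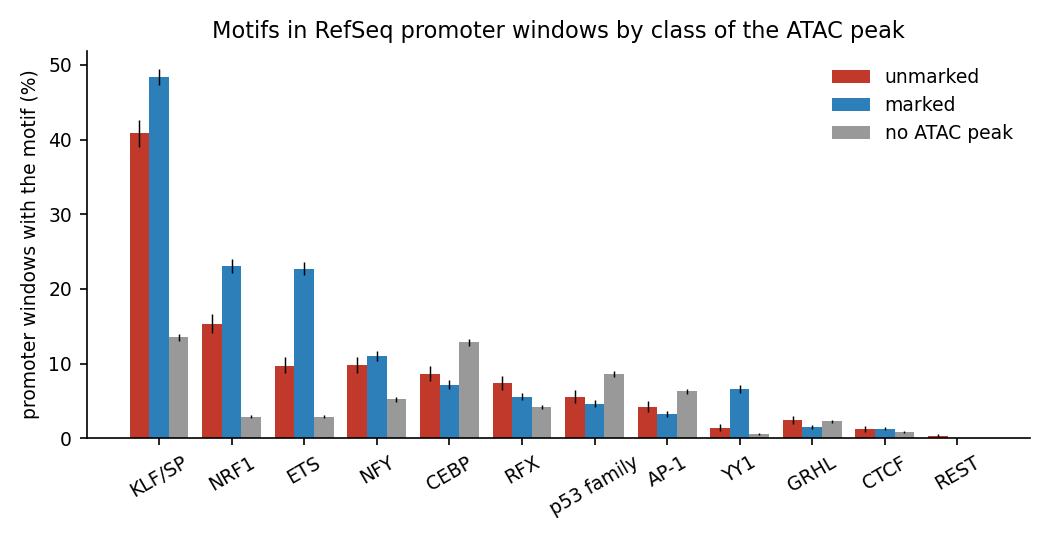
Share of RefSeq promoter windows with each motif (%, vertical axis) by class of the ATAC peak that covers at least 150 of their 300 bases; bars show exact 95% binomial intervals. ETS stands at 9.74% in unmarked against 22.7% in marked windows and YY1 at 1.43% against 6.601%, whereas NFY and CTCF shares lie close together.

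Klf5 itself is at a promoter with both marks, outside the set described here, and its count does not check the genotype labels. It had 201, 187 and 172 CPM in E17.5 libraries labelled Klf5-/-, against 180, 189 and 160 CPM in Klf5+/- ones, a log2 fold change of 0.02 with an SE of 0.10 (adjusted p = 0.982 by edgeR). HFD libraries labelled Klf5-/- had 92.8 and 112 CPM, against 68.2 and 45.9 CPM in Klf5+/- ones, a change of 1.06 with an SE of 0.23 (adjusted p = 0.053 by edgeR). Counts over the whole gene include any part that a deletion leaves, and every direction given for genotype rests on the labels.

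At E17.5 few genes with unmarked promoters passed the test between genotypes, and all that did were lower. Of 4848 genes, 3052 passed the filter on low counts, and 6 were called at an edgeR adjusted p under 0.05, all lower in libraries labelled Klf5-/- (0.197% of those tested). The background was 8 lower among 15092 genes, or 0.053%, and 5 higher, or 0.0331%. None of the unmarked genes was called higher by edgeR, where 434 had an unadjusted p under 0.05 in either direction, and DESeq2 called 32 higher and 116 lower, within 123 higher and 318 lower over all genes. The median log2 fold change was 0.03 over the unmarked genes and 0.01 over all genes tested. The 6 calls are transporters, enzymes and 1 lncRNA gene, and each had all 3 libraries labelled Klf5-/- below all 3 Klf5+/- ones. That separation comes from the same values as the calls and adds no support to them. Summed suprabasal markers stood at 35683 to 52272 CPM in libraries labelled Klf5-/-, against 60849 to 74224 CPM in Klf5+/- ones, and erythroid markers at 273 to 2719 CPM against 15.8 to 1104 CPM. Krt1 alone, with a mean of 27570 CPM over the E17.5 libraries, weighs heavily in the suprabasal sum. Of 40 tested suprabasal genes 24 were below 0 and 16 above, with 1 called higher and 0 lower. The part of these markers in the calls was not tested.

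Slc5a1, the sodium-glucose cotransporter, had 1.33, 1.43 and 1.33 RPKM in libraries labelled Klf5-/-, against 3.28, 2.80 and 2.44 RPKM in Klf5+/- ones. That is a log2 fold change of −1.12 (SE 0.16, edgeR adjusted p = 0.043), with a peak 84.1 kb from H3K27ac. Cyp2s1, an epithelial cytochrome P450, had 1.32, 1.70 and 1.39 RPKM in libraries labelled Klf5-/-, against 2.76, 3.16 and 2.96 RPKM in Klf5+/- ones (−1.08, SE 0.15, edgeR adjusted p = 0.041). Its peak, with a fold of 10.2, was among the stronger unmarked promoter peaks and lay 14.8 kb from H3K27ac.

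Ano7, of the anoctamin family, had 7.03, 8.79 and 8.23 RPKM in libraries labelled Klf5-/-, against 17.8, 16.9 and 13.2 RPKM in Klf5+/- ones (−1.06, SE 0.13, edgeR adjusted p = 0.031). Slco3a1, an organic anion transporter gene, had 5.12, 5.55 and 5.97 RPKM in libraries labelled Klf5-/-, against 11.4, 9.04 and 8.45 RPKM in Klf5+/- ones (−0.86, SE 0.12). Atp13a4, a P5-type ATPase gene, had 2.62, 2.62 and 3.12 RPKM in libraries labelled Klf5-/-, against 5.46, 4.53 and 4.53 RPKM in Klf5+/- ones (−0.86, SE 0.12). The lncRNA gene 4631405J19Rik had 6.70, 8.38 and 7.65 RPKM in libraries labelled Klf5-/-, against 12.5, 10.9 and 12.4 RPKM in Klf5+/- ones (−0.72, SE 0.10, edgeR adjusted p = 0.047). These calls rested on single libraries. All 6 were lost without the Klf5+/- library numbered 1 or 2 or that labelled Klf5-/- numbered 1 or 2, and 5 without Klf5+/- number 3. Without Klf5+/- number 1, the 2 unmarked genes called were both higher. All 6 were kept without the third labelled Klf5-/-, where 187 unmarked genes were called. They were also lost on library totals without TMM scaling, where all genes split into 4 higher and 2 lower.

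In the unsorted HFD epidermis the genes with unmarked promoters were mostly lower in libraries labelled Klf5-/-. Of 3286 tested, edgeR called 233 lower (7.09%) and 64 higher (1.95%), against backgrounds of 4.02% lower and 1.48% higher among 15848 genes. Their median log2 fold change was −0.28, against −0.01 over all genes. Marked genes had 91 lower and 91 higher of 8118 (1.12% each), and genes with no ATAC peak had 297 lower (7.18%) and 72 higher of 4136. On library totals the median of all genes shifted to −0.23 and that of the unmarked genes to −0.50, with 441 unmarked genes lower and 38 higher within 1202 lower and 138 higher over all genes. DESeq2 called 1752 genes lower and 1077 higher, 668 of the lower ones unmarked. Among genes at 1 to 10 CPM in the HFD libraries, 9.06% of unmarked were called lower, against 1.31% of marked and 9.56% of those with no ATAC peak. At 10 to 100 CPM the shares were 7.62%, 1.27% and 11.0% in the same order. Of the 233 lower genes, 99 had under 1 CPM at E17.5, against 3 of the 64 higher ones.

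Most summed markers of cells beneath the epidermis were lower in libraries labelled Klf5-/- too, though the Schwann cell sums overlapped and the immune genes were split. Summed fibroblast markers stood at 1335 to 5380 CPM in HFD libraries labelled Klf5-/-, against 21539 to 25606 CPM in Klf5+/- ones, with 15 of 15 markers below 0, a median log2 fold change of −2.85 and 3 called. Endothelial markers stood at 16.8 to 82.5 CPM against 496 to 536 CPM, with 11 of 11 below 0 and 2 called. Adipocyte markers stood at 190 to 308 against 964 to 1471 CPM, and muscle markers at 80.8 to 800 against 902 to 3111 CPM. Erythroid markers stood at 297 to 389 against 979 to 1017 CPM, and immune markers at 145 to 214 against 279 to 298 CPM, all in the same order of labels. Below 0 were 6 of 7 tested adipocyte, 10 of 10 muscle and 8 of 8 erythroid genes. The immune genes split into 7 below and 7 above 0, with a median log2 fold change of −0.09. The part of these markers in the lower calls was not tested. Without either Klf5+/- library the unmarked calls dropped to 6 and 3, and none of the 22 called genes that the naming rule picked was kept, whereas without either library labelled Klf5-/- all 22 were kept and the calls numbered 1448 and 876.

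Among the lower genes were vascular and fat cell genes. Tek, the angiopoietin receptor of endothelium, had 0.637 and 0.221 RPKM in HFD libraries labelled Klf5-/-, against 5.33 and 5.84 RPKM in Klf5+/- ones (log2 fold change −3.49, SE 0.52, edgeR adjusted p = 0.037). Kdr, a VEGF receptor, had 0.824 and 0.283 RPKM against 4.55 and 5.83 RPKM (−3.01, SE 0.55, edgeR adjusted p = 0.047). Lpl, lipoprotein lipase, had 5.24 and 8.90 RPKM in libraries labelled Klf5-/-, against 32.9 and 44.1 RPKM in Klf5+/- ones (−2.23, SE 0.31, edgeR adjusted p = 0.034). Pparg, the master regulator of fat cells, had 2.56 and 4.66 against 12.6 and 18.4 RPKM (−1.88, SE 0.36, edgeR adjusted p = 0.044). Postn, the matricellular protein periostin, had 90.4 and 62.3 against 229 and 270 RPKM (−1.49, SE 0.27). Hoxd8, Cadm4 and Hba-a1 had log2 fold changes of −1.52, −1.42 and −1.20.

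Among the most lowered were genes near the floor in libraries labelled Klf5-/-. Mettl24 had 0 and 0 counts there, against 31 and 56 in Klf5+/- libraries, at least 15.3-fold lower with 3 counts in each library as the floor. Gabra2, a GABA receptor subunit gene, had 0 and 0 counts against 31 and 28, at least 10.2-fold lower, and Cbln1, a synapse organiser gene, had 0 and 0 against 28 and 22, at least 8.64-fold lower. The cytokine gene Il7 had 0 and 1 counts against 29 and 34. These 4 genes had at most 4 counts in any E17.5 library.

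The 5 most raised calls were of several kinds. Summed suprabasal markers stood at 67716 to 79326 CPM in HFD libraries labelled Klf5-/-, against 38914 to 43823 CPM in Klf5+/- ones, with 43 of 44 above 0 and 9 called higher, and their part in the higher calls was not tested. Serpinb6c, a serine protease inhibitor gene, had 96.4 and 134 RPKM in HFD libraries labelled Klf5-/-, against 36.1 and 36.7 RPKM in Klf5+/- ones (1.88, SE 0.21, edgeR adjusted p = 0.034). Srxn1, sulfiredoxin of the oxidative stress response, had 55.1 and 86.6 against 25.4 and 18.9 RPKM (1.90, SE 0.27, edgeR adjusted p = 0.034). Dnase1l3, a secreted nuclease gene, had 8.66 and 18.3 against 2.90 and 3.09 RPKM (2.39, SE 0.37), and Arc, an immediate early gene, had 3.45 and 2.58 against 0.567 and 0.793 RPKM (2.37, SE 0.36). The beta-defensin gene Defb3 had 18 and 143 counts in libraries labelled Klf5-/-, against 0 and 1 in Klf5+/- ones.

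Among list members, Krt1 had 5729 and 6982 RPKM in HFD libraries labelled Klf5-/-, against 2738 and 3208 RPKM in Klf5+/- ones (1.32, SE 0.27, edgeR adjusted p = 0.0499), just under the threshold. Fgfbp1 had 380 and 528 against 214 and 217 RPKM (1.29, SE 0.22), Smpd1 54.5 and 51.1 against 30.9 and 36.2 RPKM (0.88, SE 0.17) and Junb 77.4 and 82.2 against 57.2 and 51.1 RPKM (0.78, SE 0.16). In each of these called genes both libraries labelled Klf5-/- lay above both Klf5+/- ones, which adds no support to the calls. Over the lists, HFD calls among unmarked members numbered 1 higher of 6 tested suprabasal genes, 2 higher of 11 epidermal transcription factors, 3 higher of 9 sphingolipid genes and 3 lower of 24 developmental transcription factors. There were 2 lower of 4 endothelial, 2 lower of 2 adipocyte and 1 lower each of 7 hair follicle, 4 Hox, 67 Zfp, 2 fibroblast, 3 Schwann and 3 erythroid genes. Over all genes tested 1.48% were called higher and 4.02% lower. Beside those named by rule, calls in the first 4 lists were Hopx (log2 fold change 1.43), Sdr9c7 (0.90), Pnpla1 (1.05), Msx1 (−3.02), Foxc2 (−4.88) and Zic4 (−4.01), added after their values were seen. Hopx is a homeodomain cofactor, Sdr9c7 and Pnpla1 are enzymes of the acylceramide pathway, and the last 3 are patterning factors. No unmarked member of the Wnt, Merkel, melanocyte or neuronal lists was called.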

How the data were processed

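Read counts for each gene are deposited as raw counts from HTSeq after STAR 2.6.0b alignment to mm10, per the submitters' processing notes. The authors also deposited RPKM values with annotated tables, whose gene starts and exon lengths were used here while RPKM was recomputed from counts. Peak lists hold the authors' MACS2 fold enrichment (a ratio) and the deposited −log10 p and −log10 q of each peak. Bowtie2 2.2.3 and Bowtie 1.0.1 are listed too, without their role. Neither the peak threshold, nor the control, nor what a merged list pooled is recorded there. The human keratinocyte and IgG ChIP data were not analysed here.

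Peaks on chromosomes 1 to 19, X and Y were intersected with bedtools 2.31.1, with 1 shared base counted as overlap. CPM was taken over the counts on genes, and 13.4 to 16.9% of reads that name no gene were left out. A floor of 3 counts equals 0.0646 to 0.0943 CPM. Genotypes were compared within each set by the edgeR 4.0.16 quasi-likelihood test (R 4.3.3) with TMM scaling, filterByExpr and Benjamini-Hochberg adjustment at 0.05, and by DESeq2 1.42.0 as an alternative. Medians by library were tested by full enumeration of the exact permutations, and binomial intervals came from scipy 1.17.1. RNA levels use log2(RPKM + 1), with a pseudocount of 1. The count fits were tested on simulated data. No pair of replicates agreed within sampling noise.

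The members, gene lists and motifs were chosen with earlier results of these data known. The peaks named are the 5 strongest at promoters, the 10 strongest distal ones and those nearest to the overlap limit. The genes named are the 10 highest in RNA level, every call at E17.5, the 5 most raised and 5 most lowered HFD calls, and at most 4 members of each list by mean RPKM; others are said to be chosen after their values were seen. A few genes that the rule picked are not reported here. The labels leave unsaid whether each replicate is its own animal, and the p-values reflect no more than the spread among the libraries, which may be technical. Intervals cover counting error only. The planned motif shares at distal peaks needed a genome and were replaced by RefSeq promoter windows, none of them on chromosome 18.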

Additional observations from a re-analysis of the deposited data

Results flagged for a closer look

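Outside chromosomes 1 to 19, X and Y, 59 of 80 ATAC peaks overlapped neither an H3K27ac nor a KLF5 peak. Of the 80, 4 lay on the mitochondrial genome, and the median fold enrichment was 2.95, below that of the members.

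For 19 of the named genes with unmarked promoters the RPKM values stood apart in opposite directions in the E17.5 and HFD sets, with every library labelled Klf5-/- on one side of every Klf5+/- library. Some of these genes were named for their calls in these same comparisons, and the share over all genes was not taken, so the count is no trait of the set. RPKM rests on library totals, on which the HFD median log2 fold change over all genes was −0.23. The difference between the sets was not tested, and the sets differ in sorting, preparation and library kit. Lower at E17.5 and higher in the HFD set were Krt1 with an HFD log2 fold change of 1.32, Dmkn 0.90, Pkp1 1.15, Dsc1 0.89, Elovl4 1.11, Tgm1 1.16, Smpd1 0.88, Ano7 0.62, Map2 0.82 and Dnase1l3 2.39. Higher at E17.5 and lower in the HFD set were Ednrb with −1.79, Mitf −0.59, Col1a2 −2.85, Cplx2 −1.50, Sox2 −1.24, Pparg −1.88, Esam −3.01 and Tek −3.49. Hoxc8 belongs to these by RPKM, but its TMM-scaled HFD change was 0.037. Of the 19, the E17.5 test called Ano7, and the HFD test called Krt1, Smpd1, Dnase1l3, Pparg and Tek.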

How the results depend on the processing

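The number of unmarked peaks stayed within 1.5 times under every alternative, at 19733 to 30982, with 3738 to 6170 at promoters and 15995 to 24887 distal. Their median fold was 5.56 for distal peaks with a −log10 q of at least 5. For promoter peaks it was 5.91 under that limit, 5.80 where ChIP peaks had to cover 50% of the peak, 5.58 with ChIP peaks of −log10 q at least 5, and 5.60 and 5.19 with windows of 500 and 2000 bases. The RNA difference between unmarked and marked genes ran from −4.29 (pseudocount 0.1) to −1.45 (at least 1 CPM), and from −2.86 to −2.84 without one library, where the exact p could not fall under 0.05. Chosen after seeing the data, windows wholly covered by a peak held ETS in 11.8% of unmarked and 23.2% of marked.

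Calls between genotypes depended on the settings. At E17.5, where the test called 13 genes and 6 unmarked ones, DESeq2 called 441 and 148, library totals 6 and 0, no filter 237 and 81, and a mean of at least 1 CPM 2 and 0. Without one library they ran from 0 to 513 and from 0 to 187; without the first labelled Klf5-/-, 1003 genes and 307 unmarked ones had an unadjusted p under 0.05. In the HFD set, with 872 and 297, DESeq2 called 2829 and 919, totals 1340 and 479, and no filter 2396 and 777. Without one library the counts ran from 19 to 5389 and from 3 to 1448, with the lone sample assumed to vary like the other group. With a replicate block the calls were 42 and 16 at E17.5 and 1520 and 486 in the HFD set. Same-numbered libraries correlated in their deviations at 0.106, −0.175 and 0.351 at E17.5 and 0.238 in the HFD set. Differently numbered ones ran from −0.455 to 0.449 at E17.5 and stood at −0.238 in the HFD set. The labels do not say whether the numbers pair libraries, and shared handling was not tested. The cause of these shifts was not tested. No named gene that was called changed sign in the alternatives that fitted it. Sign changes of uncalled genes were not tallied. The HFD median over all genes, −0.008, was 0.005 without the second Klf5+/- library. Without the first Klf5+/- library the 2 unmarked genes called at E17.5 were both higher. Motif alternatives at distal peaks were not run.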
